A study of Danio rerio with 6 samples.

Results

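Iridophores are the silvery pigment cells of fish, which stack guanine crystals into reflecting platelets. Guanine is a purine, so the crystals draw on de novo purine synthesis and on the purine nucleoside phosphorylase Pnp4a, a commonly used iridophore marker. The receptor tyrosine kinase Ltk, the transcription factors Tfec and Alx4a, and the endothelin receptor Ednrba act in the specification, survival or patterning of this lineage in zebrafish. Neither purine synthesis nor all of the lineage genes are private to iridophores, since every dividing cell makes purines, and tfec and gpnmb are also expressed in macrophages.

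The genes described here are 7 iridophore genes (pnp4a, ltk, tfec, gpnmb, alx4a, ednrba and ednrbb) and 3 genes of de novo purine synthesis (paics, gart and atic), each found by its gene name. All 10 names occurred among the 32520 genes listed, and 9 of the 10 had 1 CPM (gene counts scaled to a fixed total per library) or more in at least 2 libraries and were tested. The tenth, ednrbb, did not reach that level.

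RNA was sequenced from GFP+ cells sorted from the skin of untreated adult zebrafish aged 3 months, in 6 libraries of 3 groups with 2 replicates each. The csf1rDM GFP+DsRed- cells came from fish homozygous for csf1ra j4e1 and for csf1rb sa1503, so that the receptor of colony stimulating factor 1 is lost in both of its zebrafish forms. The control GFP+DsRed+ and control GFP+DsRed- cells came from wild-type fish. All fish carried the transgenes mpeg1-EGFP, Kdrl:Cre and act2b:loxP-STOP-loxP-DsRedexpress. The mpeg1 promoter is active in macrophages and also in metaphocytes, so GFP alone does not separate these cells. Metaphocytes are macrophage-like cells, reported in skin and intestine, that do not come from blood and express epithelial genes. The kdrl promoter drives Cre in endothelium, and DsRed therefore marks endothelial and blood cells with their descendants, whereas primitive macrophages that arise outside kdrl-expressing tissue stay unmarked. The sample labels name the unswitched groups by GFP alone, and their DsRed- status follows the study's description. The design text calls the replicates biological, but the labels do not say how many fish went into a library. The p-values weigh a group difference against the spread between libraries of a group, estimated over all 3 groups and moderated across genes.

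The libraries held between 4024245 and 14816042 gene-assigned reads, with the csf1rDM libraries the shallowest at 5072623 and 4024245 reads. A single read was thus worth 0.197 and 0.248 CPM in csf1rDM and between 0.0675 and 0.0993 CPM in the control libraries. The mutated gene csf1ra had 1.40 and 2.25 CPM in csf1rDM cells, against 1081 and 1124 CPM in control GFP+DsRed+ cells and 102 and 86.9 CPM in control GFP+DsRed- cells. The 9 leukocyte markers examined summed to 1932 and 1755 CPM in csf1rDM cells, 8228 and 9038 CPM in control GFP+DsRed+ cells, and 1862 and 1431 CPM in control GFP+DsRed- cells. The 7 epithelial markers summed to 17227 and 15414 CPM in csf1rDM cells, 9847 and 6613 CPM in control GFP+DsRed+ cells, and 15273 and 19102 CPM in control GFP+DsRed- cells. The leukocyte list includes mpeg1.1, the gene of the sort reporter, and cd74a, which the study reports in all its sorted skin populations. The epithelial list includes cdh1, epcam and cldnh, which the study counts among metaphocyte signature genes. Neither sum is therefore a measure of leukocytes or epithelial cells alone. The sort was not made for pigment cells, and no group is a preparation of iridophores. In such bulk samples, fewer cells of a type and less RNA per cell cannot be told apart.

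The first question was whether iridophore and purine genes differed between genotypes within the unmarked cells. Of the 9 tested genes, 3 were called lower in csf1rDM GFP+DsRed- cells, at an adjusted p below 0.05 against control GFP+DsRed- cells, namely ednrba, pnp4a and gpnmb, and 0 were called higher by limma, edgeR or DESeq2, also at an unadjusted p below 0.05. Over all 20382 genes tested, 6.51% were called in this comparison, 3.24% higher and 3.27% lower. Beyond a log2 fold change of 2 these were 1.56% of all genes and 2 of the 9, ednrba and pnp4a. The median log2 fold change was -1.32 for the 6 tested iridophore genes and 0.06 for the 3 purine genes, beside -0.05 for all genes tested. None of the 3 purine genes was called by limma, edgeR or DESeq2 (1 of 3, paics, at an unadjusted p below 0.05 in limma), and the fold changes of gart, paics and atic were between -0.45 and 0.33 on the log2 scale. Fold changes are on the log2(CPM + 1) scale, on which genes of low read number show too small a change.

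**Figure D1:**
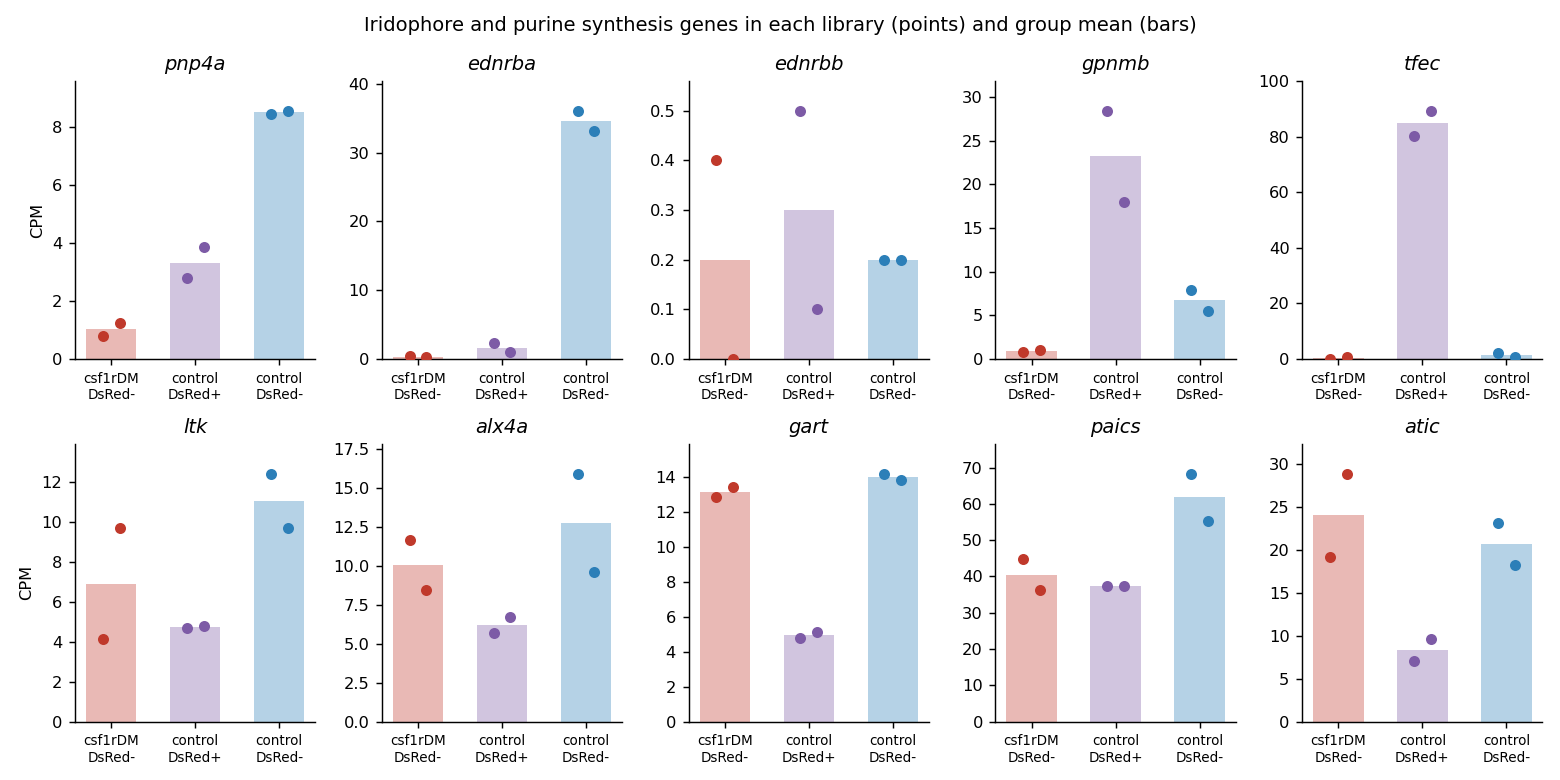
Level of the 10 iridophore and purine synthesis genes in CPM (vertical axes, each starting at 0 with its own scale) in csf1rDM GFP+DsRed-, control GFP+DsRed+ and control GFP+DsRed- cells; points are the 2 libraries of a group and bars their mean. The pnp4a and ednrba points are highest in control GFP+DsRed- cells, the gpnmb and tfec points in control GFP+DsRed+ cells, and gart and atic have their lowest points in control GFP+DsRed+ cells.

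The endothelin receptor gene ednrba (ENSDARG00000089334) had the largest genotype difference of the 9 tested genes. It had 0.400 and 0.250 CPM in csf1rDM GFP+DsRed- libraries, 2.40 and 0.949 CPM across control GFP+DsRed+ libraries, and 36.1 and 33.1 CPM across control GFP+DsRed- libraries. Its level was low in every library outside control GFP+DsRed-, and no 2 groups overlapped. In csf1rDM cells ednrba fell by 4.62 ± 0.33 on the log2 scale relative to control GFP+DsRed- cells (SE, limma adjusted p = 0.00119), from 3 reads in all in csf1rDM against 756 reads in control GFP+DsRed- cells. The ratio of these reads after scaling to library totals was 105, with an exact 95% interval of 35.8 to 511 that covers counting error only. The call held in all 18 alternative fits. Relative to control GFP+DsRed+ cells the log2 difference was -1.01 ± 0.33 (adjusted p = 0.056). That difference passed the threshold with a pseudocount of 0.5 CPM (-1.38, adjusted p = 0.0386) and without control GFP+DsRed+ replicate 3 (-1.45, adjusted p = 0.0378).

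The paralog ednrbb (ENSDARG00000053498), another endothelin receptor gene, was near the detection limit everywhere. It had 0.400 and 0 CPM in csf1rDM libraries, 0.50 and 0.0999 CPM across control GFP+DsRed+ libraries, and 0.200 and 0.200 CPM across control GFP+DsRed- libraries, which is at most 5 reads in a library. A floor of 3 reads is worth between 0.202 and 0.745 CPM in these libraries, and no difference in ednrbb was detectable at this depth. How reads that match several genes were counted is not given in the sources used here, and the values of paralogs such as ednrba and ednrbb carry that uncertainty.

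The iridophore marker gene pnp4a (ENSDARG00000057575), whose product converts purine nucleosides to free bases such as guanine, had 0.800 and 1.25 CPM in csf1rDM GFP+DsRed- libraries, 2.80 and 3.85 CPM across control GFP+DsRed+ libraries, and 8.44 and 8.55 CPM across control GFP+DsRed- libraries. The 3 groups did not overlap. The csf1rDM values rest on 4 and 5 reads, against 96 and 89 reads in control GFP+DsRed- cells. In csf1rDM cells pnp4a was 8.29-fold lower by mean CPM than in control GFP+DsRed- cells, a log2 change of -2.12 ± 0.27 (adjusted p = 0.0103). The size was similar without control GFP+DsRed- replicate 1 or replicate 2, but the adjusted p was then 0.0678 and 0.0946. Relative to control GFP+DsRed+ cells, pnp4a fell by 1.15 ± 0.27 (adjusted p = 0.0178), and the adjusted p was 0.0504 without control GFP+DsRed+ replicate 1 and 0.121 without replicate 3.

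The gene gpnmb (ENSDARG00000062688) encodes a transmembrane glycoprotein of pigment cells and macrophages. It had 0.800 and 1.00 CPM in csf1rDM libraries, 28.4 and 18.0 CPM across control GFP+DsRed+ libraries, and 7.94 and 5.50 CPM across control GFP+DsRed- libraries. All csf1rDM values lay below all control values. It fell by 1.89 ± 0.31 in csf1rDM cells relative to control GFP+DsRed- cells (adjusted p = 0.0222), which is 7.47-fold by mean CPM, with 8 csf1rDM reads in all. This call was lost without csf1rDM replicate 3 (adjusted p = 0.0635), without control GFP+DsRed- replicate 1 (0.133) and without control GFP+DsRed- replicate 2 (0.106).

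The remaining lineage genes, ltk, alx4a and tfec, did not pass the test between the unmarked groups. The gene ltk (ENSDARG00000042861) had 4.15 and 9.70 CPM in csf1rDM libraries, 4.70 and 4.80 CPM across control GFP+DsRed+ libraries, and 12.4 and 9.69 CPM across control GFP+DsRed- libraries. One csf1rDM library was thus at the level of the marked cells and the other at the level of the lower unmarked control library. The log2 difference between csf1rDM and control GFP+DsRed- cells was -0.56 ± 0.36 (adjusted p = 0.368), with a 95% interval of -1.41 to 0.30. The homeobox gene alx4a (ENSDARG00000088332) had 11.6 and 8.45 CPM in csf1rDM libraries, 5.70 and 6.75 CPM across control GFP+DsRed+ libraries, and 15.9 and 9.59 CPM across control GFP+DsRed- libraries. Its difference between csf1rDM and control GFP+DsRed- cells was -0.15 ± 0.29 (adjusted p = 0.773, 95% interval -0.84 to 0.53), and its sign turned to 0.07 without csf1rDM replicate 3 and to 0.16 without control GFP+DsRed- replicate 1. The intervals of ltk and alx4a are wide, and no likeness between the genotypes follows from the missed threshold. Between the control groups ltk was lower in control GFP+DsRed+ than control GFP+DsRed- libraries without passing the test (-0.87 ± 0.36, adjusted p = 0.126), and it passed with only the groups compared (0.0326), without csf1rDM replicate 2 (0.0291) and without csf1rDM replicate 3 (0.0312).

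The transcription factor gene tfec (ENSDARG00000098745) was highest in the control GFP+DsRed+ cells, as gpnmb was. It had 0 and 0.750 CPM in csf1rDM libraries, 80.3 and 89.4 CPM across control GFP+DsRed+ libraries, and 2.05 and 0.800 CPM across control GFP+DsRed- libraries. Both marked libraries lay above every unmarked library. In csf1rDM cells it fell by 6.11 ± 0.37 relative to control GFP+DsRed+ cells (adjusted p = 9.22e-05), with 3 csf1rDM reads against 2134 reads and a ratio of 260 after scaling to library totals (exact 95% interval 88.9 to 1262). Relative to control GFP+DsRed- cells the log2 difference was -0.75 ± 0.37 (adjusted p = 0.244), with 3 csf1rDM reads against 31 reads. The ratio of these reads after scaling to library totals was 4.31, with an exact 95% interval of 1.34 to 22.0 that covers counting error only. No likeness between the genotypes follows from the missed threshold of tfec either.

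The comparison of csf1rDM GFP+DsRed- with control GFP+DsRed+ cells sets unmarked mutant cells against marked control cells, so genotype and DsRed status change together. Of the 9 tested genes 5 were called, with tfec, gpnmb and pnp4a lower and gart and atic higher in csf1rDM. The share called over all genes was 32.4%, with 14.1% higher and 18.3% lower. Beyond a log2 fold change of 2 it was 8.09%, with 2 of the 9, tfec and gpnmb. The log2 change of gpnmb was -3.72 ± 0.31 (adjusted p = 0.000278), which is 25.8-fold by mean CPM. The calls of tfec and gpnmb held in all 18 alternative fits. The median log2 fold change was -1.08 for the iridophore genes and 1.19 for the purine genes, beside -0.07 for all genes tested.

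Within control fish, marked cells were set against unmarked cells. Of the 9 tested genes 6 were called in control GFP+DsRed+ relative to control GFP+DsRed- cells, tfec and gpnmb higher and ednrba, pnp4a, gart and atic lower. The share called over all genes was 25.4%, with 14.6% higher and 10.8% lower. Beyond a log2 fold change of 2 it was 6.02%, with 2 of the 9, tfec and ednrba. The gene tfec rose by 5.36 ± 0.37 on the log2 scale (adjusted p = 0.00015), a 59.6-fold difference by mean CPM, and gpnmb rose by 1.83 ± 0.31 (adjusted p = 0.00613), a 3.46-fold difference. Without control GFP+DsRed- replicate 2 the adjusted p of gpnmb was 0.0522. The gene ednrba fell by 3.61 ± 0.33 (adjusted p = 0.000464), or 20.7-fold, in the marked cells, and the calls of tfec and ednrba held in all 18 alternative fits. The change of pnp4a was smaller, -0.97 ± 0.27 (adjusted p = 0.0398), or 2.56-fold, and it was lost in 9 of 18 alternative fits, among them DESeq2 (adjusted p = 0.0608), the thinned reads (0.0683) and the fits without either control GFP+DsRed+ or either control GFP+DsRed- library (0.121 to 0.191). All 9 leukocyte markers were also higher in the control GFP+DsRed+ libraries than in the control GFP+DsRed- libraries, as tfec and gpnmb were, and the leukocytes' part in the tfec and gpnmb levels was not tested. The 3 comparisons share groups and are not independent of each other.

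**Figure D2:**
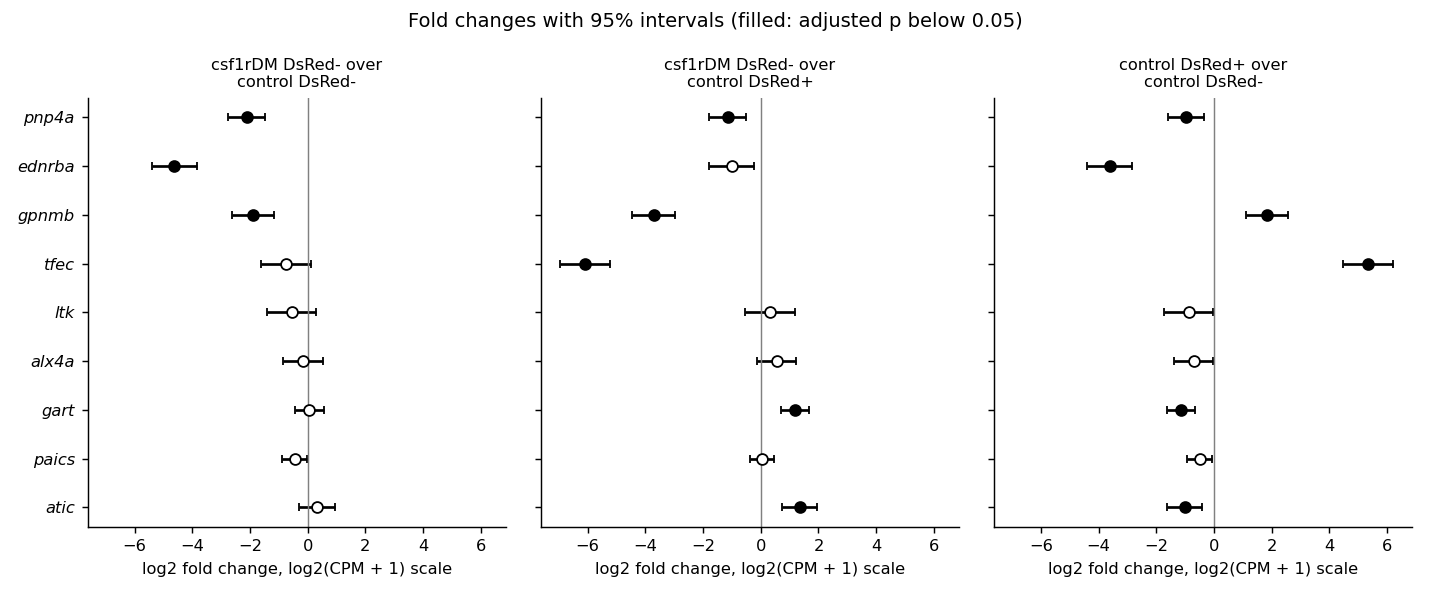
Log2 fold change with its 95% interval (horizontal axes, log2(CPM + 1) scale) of the 9 tested genes in each of the 3 comparisons; filled points passed an adjusted p of 0.05. The ednrba point lies at -4.62 between the unmarked groups, and tfec lies at -6.11 and 5.36 in the comparisons with control GFP+DsRed+ cells.

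The 3 purine members encode enzymes of the pathway that builds inosine monophosphate: gart encodes a trifunctional enzyme of early steps, paics a bifunctional enzyme in the middle, and atic the enzyme of the last steps. The gene gart (ENSDARG00000101089) had 12.8 and 13.4 CPM in csf1rDM libraries, 4.80 and 5.15 CPM across control GFP+DsRed+ libraries, and 14.2 and 13.8 CPM across control GFP+DsRed- libraries. Both csf1rDM values lay just below the unmarked control values, and the marked cells were lower than either. The log2 difference between csf1rDM and control GFP+DsRed- cells was 0.06 ± 0.21 (adjusted p = 0.891, 95% interval -0.44 to 0.55), turning to -0.084 when only library totals were used for scaling and to -0.092 in thinned reads. Relative to control GFP+DsRed+ cells gart was 2.64-fold higher in csf1rDM cells (1.19 ± 0.21, adjusted p = 0.00559), and control GFP+DsRed+ cells were 2.81-fold below control GFP+DsRed- cells (-1.14 ± 0.21, adjusted p = 0.00859). The call between the control groups was lost in 3 of 6 fits that each left out 1 library, with adjusted p between 0.0571 and 0.0711.

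The gene atic (ENSDARG00000016706) had 19.1 and 28.8 CPM in csf1rDM libraries, 7.10 and 9.59 CPM across control GFP+DsRed+ libraries, and 23.1 and 18.2 CPM across control GFP+DsRed- libraries. The unmarked groups overlapped, and both lay above the marked cells, as for gart. Relative to control GFP+DsRed+ cells atic was 2.87-fold higher in csf1rDM cells (1.35 ± 0.26, adjusted p = 0.00822), with an adjusted p of 0.0519 without control GFP+DsRed+ replicate 1. In control GFP+DsRed+ relative to control GFP+DsRed- cells it fell by 1.02 ± 0.26 (adjusted p = 0.0294), a call lost in the thinned reads (adjusted p = 0.104) and in 4 of the 6 fits that left out a library (0.0838 to 0.158). Between the unmarked groups the log2 difference was 0.33 ± 0.26 (adjusted p = 0.456, 95% interval -0.29 to 0.95).

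The gene paics (ENSDARG00000033539) had 44.7 and 36.3 CPM in csf1rDM libraries, 37.4 and 37.3 CPM across control GFP+DsRed+ libraries, and 68.4 and 55.2 CPM across control GFP+DsRed- libraries. Its csf1rDM values overlapped the marked cells, which those of gart and atic did not, and lay below both unmarked control values. It passed none of the 3 tests, with -0.45 ± 0.18 in csf1rDM relative to control GFP+DsRed- cells (adjusted p = 0.171) and -0.49 ± 0.18 in control GFP+DsRed+ relative to control GFP+DsRed- cells (adjusted p = 0.0914). With library totals alone as the scaling, the difference between control GFP+DsRed+ and control GFP+DsRed- cells was called (-0.70, adjusted p = 0.0317). The difference between csf1rDM and control GFP+DsRed+ cells was 0.04 ± 0.18 (adjusted p = 0.876) and turned to -0.11 without csf1rDM replicate 2.

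The other genes of de novo purine synthesis gave the pathway around these 3. Together with gart, paics and atic they numbered 15, and summed to 372 and 394 CPM in csf1rDM libraries, 319 and 330 CPM across control GFP+DsRed+ libraries, and 511 and 461 CPM across control GFP+DsRed- libraries. Between csf1rDM and control GFP+DsRed- cells 0 of the 15 were called, beside 6.51% of all genes tested. Of the 15 fold changes 11 were negative, and their median was -0.32, beside -0.05 for all genes tested. At an unadjusted p below 0.05 there were 4 lower and 0 higher in limma, and the adjusted count was also 0 in edgeR and DESeq2. It was 1 in the fit without csf1rDM replicate 2 and 0 in the other 17 alternatives. In control GFP+DsRed+ relative to control GFP+DsRed- cells the median of the 15 was -0.58, beside -0.03 for all genes. Over all genes tested 25.4% were called in that comparison, 10.8% lower. Of the 15, 5 were called, all lower. These were gart, atic, pfas (-1.11 ± 0.30, adjusted p = 0.0349), impdh1b (-0.99 ± 0.22, adjusted p = 0.0179) and adssl1 (-1.05 ± 0.24, adjusted p = 0.0182), which encode a further enzyme of the inosine monophosphate pathway and enzymes that lead from it towards guanine and adenine nucleotides. Without control GFP+DsRed+ replicate 3 or control GFP+DsRed- replicate 1, 0 of the 15 were called, and without control GFP+DsRed- replicate 2, 1 was. In csf1rDM relative to control GFP+DsRed+ cells 3 of the 15 were called higher and 0 lower. Over all genes tested 32.4% were called there, 14.1% higher. The 3 were gart, atic and adssl1 (0.83 ± 0.24, adjusted p = 0.0349), and the median of the 15 was 0.04, beside -0.07 for all genes tested. The adssl1 call was lost in every fit that left out a library.

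**Figure D3:**
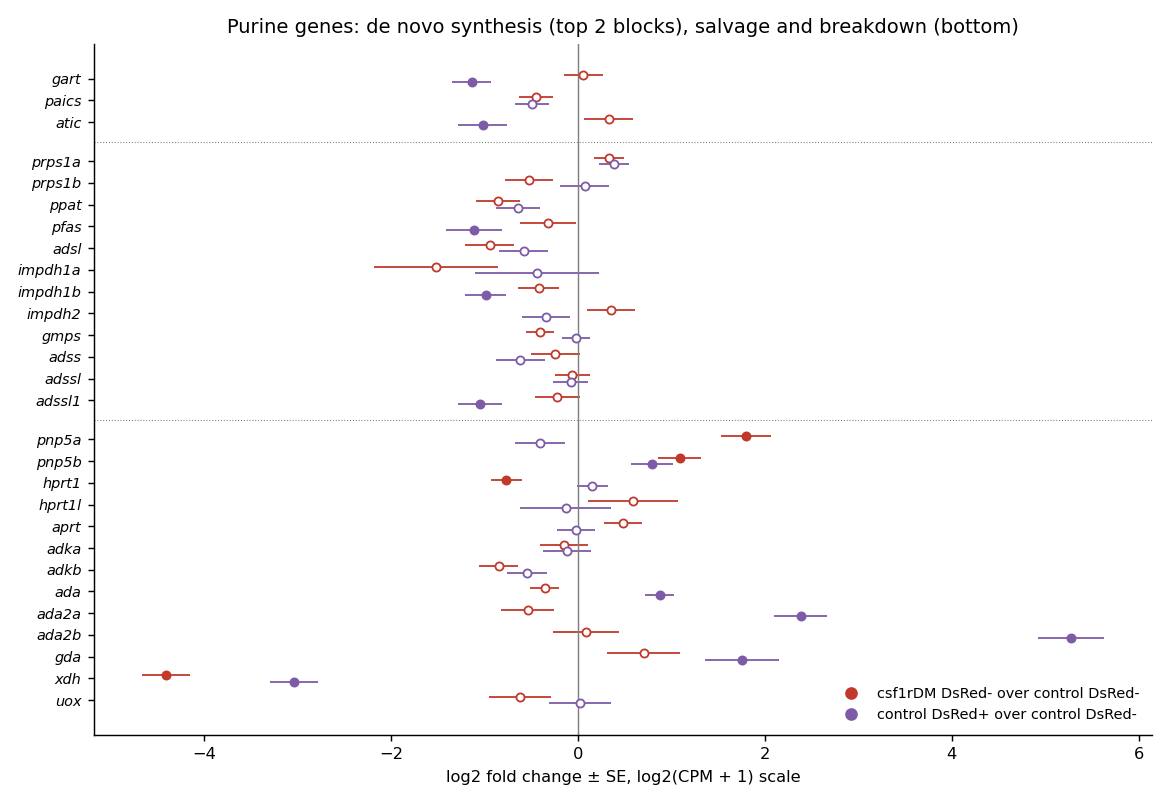
Log2 fold change ± SE (horizontal axis, log2(CPM + 1) scale) of the 3 purine members (top), the other de novo synthesis genes (middle) and the salvage and breakdown genes (bottom) for csf1rDM GFP+DsRed- over control GFP+DsRed- cells (red) and control GFP+DsRed+ over control GFP+DsRed- cells (purple); filled points passed an adjusted p of 0.05. No red point of the de novo genes is filled, whereas xdh lies at -4.40 and pnp5a at 1.80.

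Between the unmarked groups the log2 fold changes of purine salvage and breakdown genes ranged from -4.40 to 1.80. Those of the de novo synthesis genes ranged from -1.52 to 0.35. Of 13 salvage and breakdown genes tested, 2 were higher and 2 lower in csf1rDM than in the control GFP+DsRed- cells. Over all genes tested, 3.24% were higher and 3.27% lower. The median of the 13 was -0.15, beside -0.05 for all genes tested. The phosphorylase gene pnp5a, a relative of pnp4a, had 1110 and 1920 CPM in csf1rDM libraries, 301 and 304 CPM across control GFP+DsRed+ libraries, and 426 and 509 CPM across control GFP+DsRed- libraries. It rose by 1.80 ± 0.27 in csf1rDM relative to control GFP+DsRed- cells (adjusted p = 0.0161), opposite in sign to pnp4a, and the adjusted p was 0.0914 and 0.0794 without control GFP+DsRed- replicate 1 and replicate 2. Relative to control GFP+DsRed+ cells pnp5a rose by 2.20 ± 0.27 (adjusted p = 0.00116), a call kept in all 18 alternative fits. The paralog pnp5b rose by 1.09 ± 0.23 (adjusted p = 0.0402) and hprt1, which returns guanine and hypoxanthine to nucleotides, fell by 0.77 ± 0.17 (adjusted p = 0.0449) in csf1rDM relative to control GFP+DsRed- cells. The pnp5b call was lost in 7 of 18 alternative fits, among them the 4 without a csf1rDM or a control GFP+DsRed- library (adjusted p 0.0618 to 0.197). The hprt1 call was lost in 11 of 18, among them all 6 fits without 1 library (0.0526 to 0.21). The paralog pnp4b was listed at 0 in every library.

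Xanthine dehydrogenase, encoded by xdh, works in purine breakdown and in the pigment pathway of xanthophores, the yellow pigment cells. It had 0 and 0 CPM in csf1rDM libraries, 1.30 and 1.70 CPM across control GFP+DsRed+ libraries, and 20.9 and 23.1 CPM across control GFP+DsRed- libraries, and was thus at least 66.5-fold lower in csf1rDM than in control GFP+DsRed- cells, with the csf1rDM group set at a floor of 3 reads (adjusted p = 0.00051). The adenosine deaminase genes ada2a and ada2b were highest in the marked cells, with log2 changes of 2.38 ± 0.28 (adjusted p = 0.00139) and 5.28 ± 0.35 (adjusted p = 0.000139) in control GFP+DsRed+ relative to control GFP+DsRed- cells. Of 7 tested genes of one-carbon and folate metabolism, which supplies carbon to the purine ring, 0 were called between the unmarked groups by limma, edgeR or DESeq2, with 2 lower at an unadjusted p below 0.05 (median -0.38). Over all genes tested, limma called 6.51% between these groups, and the median was -0.05. In csf1rDM relative to control GFP+DsRed+ cells 2 of the 7 were called, beside 32.4% of all genes tested. There mthfd1b rose by 0.74 ± 0.20 (adjusted p = 0.0289) and dhfr fell by 0.88 ± 0.26 (adjusted p = 0.0417). The mthfd1b call was lost in 8 and the dhfr call in 12 of 18 alternative fits, with adjusted p up to 0.136 and 0.165.

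Other genes listed for the iridophore lineage and pigment progenitors, not all of them particular to iridophores, were also examined. Of 24 found, 19 were tested, and 5 were called lower and 0 higher in csf1rDM than in the control GFP+DsRed- cells. Over all genes tested, 3.27% were called lower and 3.24% higher. Of the 19 fold changes 14 were negative and 5 positive, with a median of -0.79, beside -0.05 for all genes tested. The positive ones were akap12a (0.72), fhl2a (0.64), ece2b (0.10), tjp1a (0.08) and mpv17 (0.04), none of them called. The gene cax1 had 0.200 and 0.750 CPM in csf1rDM libraries, 1.20 and 2.40 CPM across control GFP+DsRed+ libraries, and 41.3 and 32.6 CPM across control GFP+DsRed- libraries, an order of groups like that of ednrba. It fell by 4.58 ± 0.33 in csf1rDM relative to control GFP+DsRed- cells (adjusted p = 0.00119). The gap junction gene gja5b fell by 3.06 ± 0.30 (adjusted p = 0.00381), with 0.800 and 1.00 CPM in csf1rDM, 1.30 and 0.550 CPM in control GFP+DsRed+ and 16.3 and 16.3 CPM across control GFP+DsRed- libraries. Both calls held without each library in turn, but with the replicate number as a block gja5b did not pass (-2.90, adjusted p = 0.0815). The progenitor transcription factor genes mitfa (-2.38 ± 0.27, adjusted p = 0.00722), sox10 (-2.09 ± 0.27, adjusted p = 0.0111) and tfap2e (-1.97 ± 0.27, adjusted p = 0.0134) also fell. Without control GFP+DsRed- replicate 1 or replicate 2 the adjusted p of these 3 genes lay between 0.0618 and 0.0999. The Ltk ligand gene alkal2b had 2.20 and 1.5 CPM in csf1rDM, 2.60 and 1.35 CPM in control GFP+DsRed+ and 4.80 and 6.80 CPM across control GFP+DsRed- libraries, and passed no test (adjusted p = 0.0937 between the unmarked groups). In control GFP+DsRed+ relative to control GFP+DsRed- cells 6 of the 19 were lower and 1 higher (median -0.67), beside 10.8% lower and 14.6% higher over all genes. Among the 6 were cax1 at -3.61 ± 0.33, gja5b at -3.03 ± 0.30 and sox10 at -2.58 ± 0.27. In csf1rDM relative to control GFP+DsRed+ cells 2 of the 19 were called, beside 32.4% of all genes tested. Here mitfa was lower (-2.01 ± 0.27, adjusted p = 0.00185) and tjp1a higher (1.20 ± 0.22, adjusted p = 0.00626).

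Endothelin ligands, their converting enzymes and the type A receptors gave the pathway around ednrba. Of 7 tested endothelin genes, 0 were called between csf1rDM and control GFP+DsRed- cells, beside 6.51% of all genes tested (medians 0.26 and -0.05). Between control GFP+DsRed+ and control GFP+DsRed- cells 0 of the 7 were called, beside 25.4% of all genes tested (medians -0.16 and -0.03). At an unadjusted p below 0.05 limma gave 0 between the unmarked groups, and 1 higher and 2 lower between the control groups, where DESeq2 called 1 higher. The receptor gene ednraa had 16.2 and 24.6 CPM in csf1rDM libraries, 8.45 and 6.85 CPM across control GFP+DsRed+ libraries, and 17.6 and 13.7 CPM across control GFP+DsRed- libraries. It was higher in csf1rDM than in control GFP+DsRed+ cells (1.23 ± 0.27, adjusted p = 0.0129), a call lost without control GFP+DsRed+ replicate 3 (1.07). Of the 7 tested genes only ednraa was called in that comparison, beside 32.4% of all genes tested. The ligand gene edn3b had at most 2.5 CPM.

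Summed markers of xanthophores, melanophores, and fibroblasts and scales were lower along with ednrba and pnp4a between the unmarked groups. Over all genes tested, 3.24% were called higher and 3.27% lower in that comparison. The 11 xanthophore markers summed to 48.6 and 27.2 CPM in csf1rDM libraries, 83.4 and 111 CPM across control GFP+DsRed+ libraries, and 665 and 596 CPM across control GFP+DsRed- libraries, with 9 of 11 lower and 0 higher in csf1rDM than in control GFP+DsRed- cells (median -4.40, and -0.05 for all genes tested) and xdh and slc2a15a at 0 in both csf1rDM libraries. The 11 melanophore markers summed to 65.4 and 86.0 CPM in csf1rDM, 28.6 and 28.9 CPM in control GFP+DsRed+ and 119 and 124 CPM across control GFP+DsRed- libraries, with 4 of the 8 tested lower and kita higher in csf1rDM than in control GFP+DsRed- cells, and dct, oca2 and mc1r at 0 in both csf1rDM libraries. The 5 fibroblast and scale markers summed to 4510 and 1751 CPM in csf1rDM, 7440 and 7408 CPM in control GFP+DsRed+ and 16539 and 14644 CPM across control GFP+DsRed- libraries, with 4 of 5 lower in csf1rDM than in control GFP+DsRed- cells. The sum of neutrophil markers went the other way, with 65.2 and 110 CPM in csf1rDM, 385 and 313 CPM in control GFP+DsRed+ and 47.8 and 23.1 CPM across control GFP+DsRed- libraries. Of the 5 tested, 2 were called higher and 0 lower in csf1rDM than in control GFP+DsRed- cells, and both calls were entries named mmp13a. Of the 5 fold changes 4 were positive and 1 negative (median 1.46), with 0 lower also at an unadjusted p below 0.05. Of the 5 glia and nerve, 5 endothelial and 5 erythrocyte markers 0 were called between the unmarked groups by limma, edgeR or DESeq2, with medians of 0.08, -0.02 and 0.05, and at an unadjusted p below 0.05 limma gave 1, 0 and 1 higher and 0 lower. The part of these cell types in the levels of ednrba, pnp4a and the other iridophore genes was not tested.

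**Figure D4:**
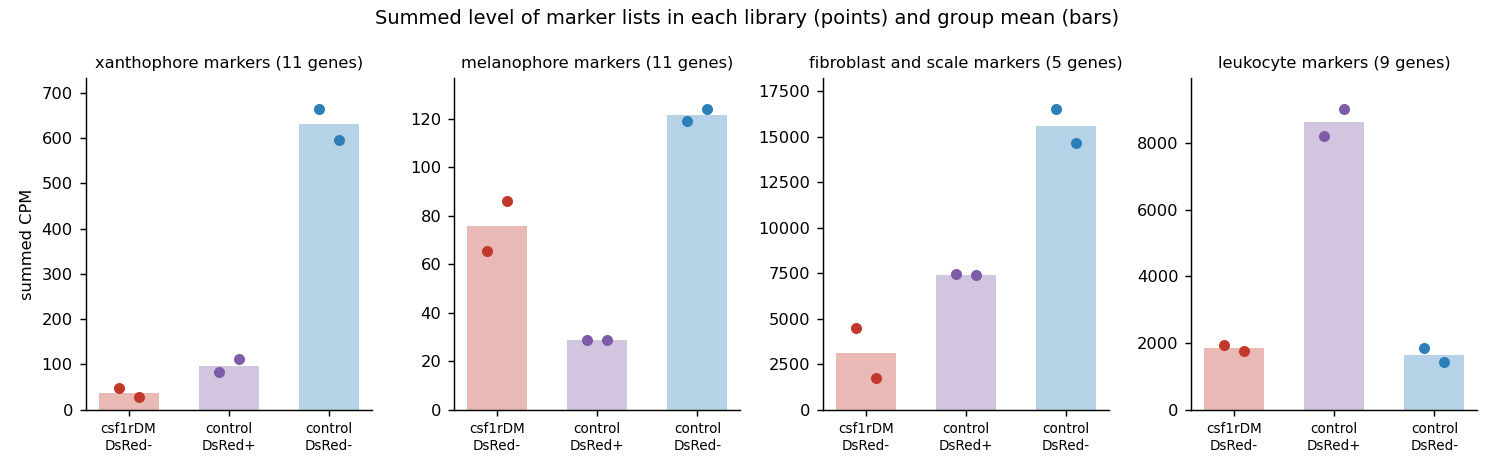
Summed CPM (vertical axes, each starting at 0) of xanthophore, melanophore, fibroblast and scale, and leukocyte markers in csf1rDM GFP+DsRed-, control GFP+DsRed+ and control GFP+DsRed- cells; points are the 2 libraries of a group and bars their mean. The xanthophore sum is below 50 CPM in csf1rDM cells, between 83.4 and 111 CPM in control GFP+DsRed+ cells and at 665 and 596 CPM in control GFP+DsRed- cells.

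Across the 6 libraries, the level of ednrba followed that of pnp4a most closely among the other 8 tested members, with Pearson's r = 0.90 on log2(CPM + 1), ahead of paics (0.65), gpnmb (0.52) and ltk (0.50). The values for tfec (0.17), alx4a (0.09), gart (-0.09) and atic (-0.23) were lower. Of 8809 genes searched, ccdc125 (0.990), scarb1 (0.988), rps4x (0.986), rbbp4 (0.984) and hnrnpdl (0.982) had the highest r with pnp4a. The gene scarb1 is also among the xanthophore markers above. Pearson's r does not measure the size of a change. In csf1rDM relative to control GFP+DsRed- cells rps4x, rbbp4 and hnrnpdl changed by -0.23, -0.51 and -0.29, against -2.12 for pnp4a. These 3 genes were called in none of the 3 comparisons. With 6 points in 3 groups the r values rest largely on the order and spacing of 3 group means, and libraries of a group share the cell sort.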

How the data were processed

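RNA of sorted skin cells was sequenced after SoLo library preparation. The submitters' processing notes name GRCz11, STAR 2.5.4b and HTSeq 0.11.0, with which the authors mapped read pairs and obtained counts per Ensembl gene. How strand, reads that match several genes and duplicate reads were handled is not given in the sources used here, so overlapping genes, antisense genes and paralogs are uncertain. The deposited values are a signal: counts that the authors multiplied by a factor per library to a common total and rounded up, which left totals of 20008939 to 20013750. This scaling was read from the values, and at least 99.886% of values per library equalled exactly a whole multiple of the value of 1 read, rounded up. A test for plain multiples, with no allowance for rounding up, passed in only 2 of the 6 libraries, so the reads of the other 4 rest on that allowance. On simulated reads the recovery was checked as well.

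CPM were taken from the deposited values, by gene identifier since 3460 entries repeated an earlier gene name. The test was limma 3.58.1 (R 4.3.3, empirical Bayes with a variance trend) on log2(CPM + 1) after TMM scaling (edgeR 4.0.16, factors 0.922 to 1.128), with 1 coefficient per group over all 6 libraries and Benjamini-Hochberg adjustment over 20382 genes that reached 1 CPM in 2 or more libraries. Values are given per library, and fold changes by mean CPM are not TMM-scaled. Intervals of read ratios are exact binomial and cover counting error only. A floor of 3 reads over a group was used where a group had 0. Replicate numbers of the titles pair only 1 library per pair of groups, with correlations of deviations of 0.031, 0.0213 and -0.423, and were not taken as pairs. With 2 libraries per group the deviations are mirror images. The sign of -0.423, between the control groups, therefore turns if control GFP+DsRed+ replicate 3 is taken instead of replicate 1. Variation shared across the control groups was not tested. The 18 alternatives were other tools (edgeR quasi-likelihood, DESeq2 1.42.0), normalizations, filters, pseudocounts, a replicate block, thinned reads, only the groups compared, and each library left out. The fit was tested on simulated data.

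The members and gene lists were chosen with earlier results of these data known, the lists from general knowledge. Named were the 10 members, every list gene called between the unmarked groups, and up to 3 called genes per list in the other comparisons. Outside this rule, alkal2b, edn3b, pnp4b, akap12a, fhl2a, ece2b, mpv17 and some of the cell type markers were also named. Genes most like pnp4a were sought among tested genes averaging at least 10 CPM, without those named after a clone or locus. The mutated gene csf1ra was given beside the labels, but its RNA level alone does not establish the genotype. No sequences were used here. Figures were drawn with matplotlib 3.10.9.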

Additional observations from a re-analysis of the deposited data

How the results depend on the processing

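Over 18 alternatives, 443 of 486 member fold changes kept their direction and side of the threshold, 31 lost the call, 6 gained it and 6 turned sign. Of the named list genes 408 of 484 were unchanged and 76 lost the call. The signs that turned all belonged to differences that were not called: alx4a between csf1rDM and control GFP+DsRed- cells to 0.07 and 0.16 without csf1rDM replicate 3 or control GFP+DsRed- replicate 1 (range without 1 library -0.44 to 0.16), gart in that comparison to -0.084 with library totals and -0.092 in thinned reads, and, between csf1rDM and control GFP+DsRed+ cells, ltk to -0.21 without csf1rDM replicate 3 (range -0.21 to 0.84) and paics to -0.11 without csf1rDM replicate 2 (range -0.11 to 0.20). Between csf1rDM and control GFP+DsRed- cells the 1327 genes called became 2145 with DESeq2, 697 with no filter, 603 with only the groups compared, 317 beyond a log2 fold change of 2, and 120 to 1728 without 1 library, when the 3 members became 1 to 3. Between csf1rDM and control GFP+DsRed+ cells the 6610 genes became 1648 beyond 2 and 3358 to 6687 without 1 library, and the 5 members 2 and 3 to 5. Between the control groups the 5180 genes became 1227 beyond 2 and 2214 to 6032 without 1 library, and the 6 members 2 and 2 to 7. With library totals alone, 462 higher and 1041 lower genes stood against 661 and 666 between the unmarked groups, and 2371 and 3259 against 2982 and 2198 between the control groups, with all-gene medians of -0.18 and -0.21. DESeq2 gave 1320 higher and 825 lower between the unmarked groups. The cause of these changes was not tested.

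With the replicate number as a block, which leaves 1 residual degree of freedom, 67 genes were called between the unmarked groups, 3756 between csf1rDM and control GFP+DsRed+ cells and 2245 between the control groups, with 1, 3 and 4 members. Lost were pnp4a (adjusted p = 0.108) and gpnmb (0.166) between the unmarked groups, pnp4a (0.089) and gart (0.0623) between csf1rDM and control GFP+DsRed+ cells, and pnp4a (0.131) and gart (0.086) between the control groups. Of the 9 list genes named between the unmarked groups, cax1 and xdh kept the call and 7 lost it, gja5b (0.0815), mitfa (0.107), sox10 (0.139), tfap2e (0.143), pnp5a (0.143), pnp5b (0.209) and hprt1 (0.259). The shallow csf1rDM libraries, with 4 and 5 pnp4a reads and 3 ednrba reads in all, limit what can be said of lower levels.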
